A study of Mus musculus with 47 samples.

Results

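The glutathione S-transferases described here are 10 genes of the alpha, mu, pi and theta classes: *Gsta1*, *Gsta2*, *Gsta3*, *Gsta4*, *Gstm1*, *Gstm2*, *Gstm3*, *Gstp1*, *Gstt1* and *Gstt3*. Members were found by their gene name in the array annotation. 9 of the 10 had a probe and *Gsta1* had none, which left 12 of the 56605 gene probes of the array. All 12 probes were well above background on all 47 arrays and entered the tests. RNA was measured in the liver of C57Bl/6J littermates born to Pxr+/- dams, either Pxr+/+ or Pxr-/-, a deletion of the pregnane X receptor carried in every tissue. Mice of each sex and genotype drank plain tap water (control) or water with ampicillin at 1 g/L, neomycin at 1 g/L and vancomycin at 0.5 g/L (ATB) for 2 weeks from 6 months of age, and all were killed 6 h after lights on. The 8 groups of sex, genotype and treatment each held 6 arrays, except the Pxr-/- control males, with 5. Each array came from 1 mouse, the mice of a group came from 2 cages, and the cage of a mouse was not given, so that cage and group cannot be told apart.

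Glutathione S-transferases join the tripeptide glutathione to reactive electrophiles, which makes drugs, plant compounds and the aldehydes of lipid peroxidation more soluble and ready for export. The cytosolic enzymes are dimers grouped in classes by sequence, and hepatocytes rank among the cells richest in them. Transcription of several members is known to respond to NRF2, the sensor of electrophile stress, and to the xenobiotic receptors PXR and CAR. The study asked how the receptor, the gut microbiota and sex act on liver transcription. The data below describe the RNA of the 9 members with a probe.

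The probes that carry the antibiotic result are shown first, because the array reads each gene through 1 stretch of 60 bases. The *Gstp1* probe lies at chr19:4037306-4037365 and the *Gsta4* probe at chr9:78046172-78047344, where it crosses an intron (build mm9, as annotated in the files). Both are printed in lower case from 5′ to 3′.

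*Gstp1* probe: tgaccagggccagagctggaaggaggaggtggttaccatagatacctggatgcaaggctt
*Gsta4* probe: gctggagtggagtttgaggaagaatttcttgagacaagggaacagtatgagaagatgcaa

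The annotation of the *Gstp1* probe lists accessions of *Gstp1* and of its neighbouring copy *Gstp2*, so its signal may hold RNA of both. A separate probe is annotated to *Gstp2* alone. No other glutathione S-transferase probe shared a run of over 10 bases with the leading probe of a member. The *Gsta2* probe stood apart in this respect, because 53 of its 60 bases matched a probe of the predicted gene *Gm10639*, with an unbroken run of 30 bases, and both probes rose and fell together across the 47 arrays (r = 0.95).

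*Gstp1* and *Gstp2* moved alike between the sexes, as described below, and the 250 bases before their start sites are shown for that reason. Both come from RefSeq on GRCm38.p6, minus strand, at chr19:4037913-4038162 for *Gstp1* and chr19:4042222-4042471 for *Gstp2*. Capitals mark a match to the AP-1 motif TGANTCA.

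*Gstp1* promoter: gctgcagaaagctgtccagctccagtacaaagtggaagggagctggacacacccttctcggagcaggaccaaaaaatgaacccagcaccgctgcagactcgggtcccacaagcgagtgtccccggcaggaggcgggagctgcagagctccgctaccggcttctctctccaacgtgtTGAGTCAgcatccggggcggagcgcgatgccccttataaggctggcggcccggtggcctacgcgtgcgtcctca
*Gstp2* promoter: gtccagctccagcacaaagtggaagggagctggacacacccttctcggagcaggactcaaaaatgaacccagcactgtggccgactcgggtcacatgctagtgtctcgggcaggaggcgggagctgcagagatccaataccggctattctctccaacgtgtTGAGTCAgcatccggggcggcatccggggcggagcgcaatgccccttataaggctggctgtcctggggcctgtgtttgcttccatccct

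The promoters had the same base at 207 of 235 aligned positions, an identity of 88.1%. The match ended 68 bases before the start of *Gstp1* and 83 bases before that of *Gstp2*. Of 32851 mouse promoters of the same length, 6.75% held the motif on either strand. Among the 9 members with a promoter entry, *Gstp1* was the one with this motif, *Gsta3* held the core of the antioxidant response element (TGACNNNGC, in 10.2% of promoters) and *Gsta1* held a STAT5 motif (TTCNNNGAA, in 7.02%). The nuclear receptor half-sites AGGTCA (14% of promoters) and AGTTCA (11.8%) had no match in the window of any of the 9. A match in these letters is a description and not a binding site.

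Each array carried 60-base probes read in 1 colour. The 75th percentile of the median spot signal ran from 306 to 492.5 between arrays, and 31090 to 34477 probes were well above background. Every array correlated with the rest of its group at a median r of at least 0.99. The hepatocyte marker list (9 of 10 genes tested) had a mean log2 signal between 16.45 and 16.66 in each group. The probe of *Nr1i2*, the gene of PXR, was lower in Pxr-/- livers by log2 differences of -0.28 and -0.57 in males and -0.29 and -0.50 in females (control, then ATB), none of which passed the test, and whether it lies within the deleted part is not known. The level of *Cyp2c55*, a P450 of the xenobiotic response, was higher in Pxr-/- livers in all 4 comparisons of genotype, by 2.36 to 3.37. The paper describes *Cyp2c55* as a target gene of PXR, so its rise without PXR is no check of the genotype. Genotype was taken from the labels. Levels below are log2 normalised signals and differences are on the log2 scale. Calls were made for each gene at its brightest probe, where the adjusted p was 0.05 or less and the fold change exceeded 1.2. All adjusted p-values are from limma with Benjamini-Hochberg adjustment over the 32980 probes tested.

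After antibiotics *Gstp1* was lower in the liver of males of both genotypes and *Gsta4* was lower in Pxr+/+ males. *Gstp1* encodes the pi-class enzyme and *Gsta4* the alpha-class enzyme that conjugates 4-hydroxynonenal, an aldehyde of lipid peroxidation. No member was called higher after antibiotics in any of the 4 comparisons, and none was called in either direction in females.

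In Pxr+/+ males the level of *Gstp1* ran from 13.93 to 14.77 in control livers, with a median of 14.63. In ATB livers it ran from 13.25 to 14.16, with a median of 13.75. The ranges overlapped, with the lowest control mouse below the highest ATB mouse. The mean was 14.52 ± 0.31 (SD, n = 6) in controls and 13.78 ± 0.35 (SD, n = 6) after ATB, a difference of -0.74 (SE 0.15, 95% interval -1.05 to -0.43, adjusted p = 0.00795, limma), or 1.67-fold lower.

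In Pxr-/- males the 5 control livers had *Gstp1* levels of 14.74, 14.40, 14.69, 14.52 and 14.42. The 6 ATB livers ran from 13.36 to 14.11, with a median of 13.54. Every ATB liver lay below every control liver. The mean fell from 14.55 ± 0.15 (SD, n = 5) to 13.65 ± 0.31 (SD, n = 6), a difference of -0.90 (SE 0.16, 95% interval -1.22 to -0.58, adjusted p = 0.00676, limma), or 1.87-fold lower. The fall in Pxr+/+ males differed from that in Pxr-/- males by 0.16, with a 95% interval of -0.28 to 0.61 (adjusted p = 0.901, limma interaction), an interval that leaves room for differences in either direction.

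Females held far less *Gstp1* signal, and their differences did not pass the test. In Pxr+/+ females control livers ran from 11.49 to 12.46 (median 11.97) and ATB livers from 11.31 to 11.58 (median 11.44). The ATB livers lay close together at the lower end of the control range. The difference was -0.52 (SE 0.15, unadjusted p = 0.00137 and adjusted p = 0.238, limma). In Pxr-/- females control livers ran from 11.53 to 12.03 (median 11.84) and ATB livers from 11.33 to 11.78 (median 11.59), with a difference of -0.24 (adjusted p = 0.56, limma). The direction was thus below 0 in all 4 comparisons of antibiotics. The effect in males less that in females was -0.22 in Pxr+/+ mice (adjusted p = 0.609) and -0.67 in Pxr-/- mice (unadjusted p = 0.00424, adjusted p = 0.895, limma interaction), so no difference of the effect between the sexes was established.

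*Gsta4* in Pxr+/+ males ran from 9.85 to 10.35 in control livers (median 10.08) and from 9.21 to 9.83 in ATB livers (median 9.48). The groups did not overlap. The mean fell from 10.10 ± 0.18 to 9.51 ± 0.22 (SD, n = 6 each), a difference of -0.59 (SE 0.15, 95% interval -0.90 to -0.29, adjusted p = 0.0416, limma), or 1.51-fold lower. In Pxr-/- males the 5 control livers had levels of 10.15, 10.20, 10.12, 10.24 and 10.38, against 9.60 to 10.34 after ATB (median 9.82). These ranges overlapped, and the difference of -0.32 did not pass the test (adjusted p = 0.735, limma). In females the differences were -0.29 (adjusted p = 0.5) and -0.03 (adjusted p = 0.961, limma) in Pxr+/+ and Pxr-/- mice. None of the interaction terms of *Gsta4* passed the test, the one between genotypes in males being -0.27 (adjusted p = 0.852, limma).

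**Figure D1:**
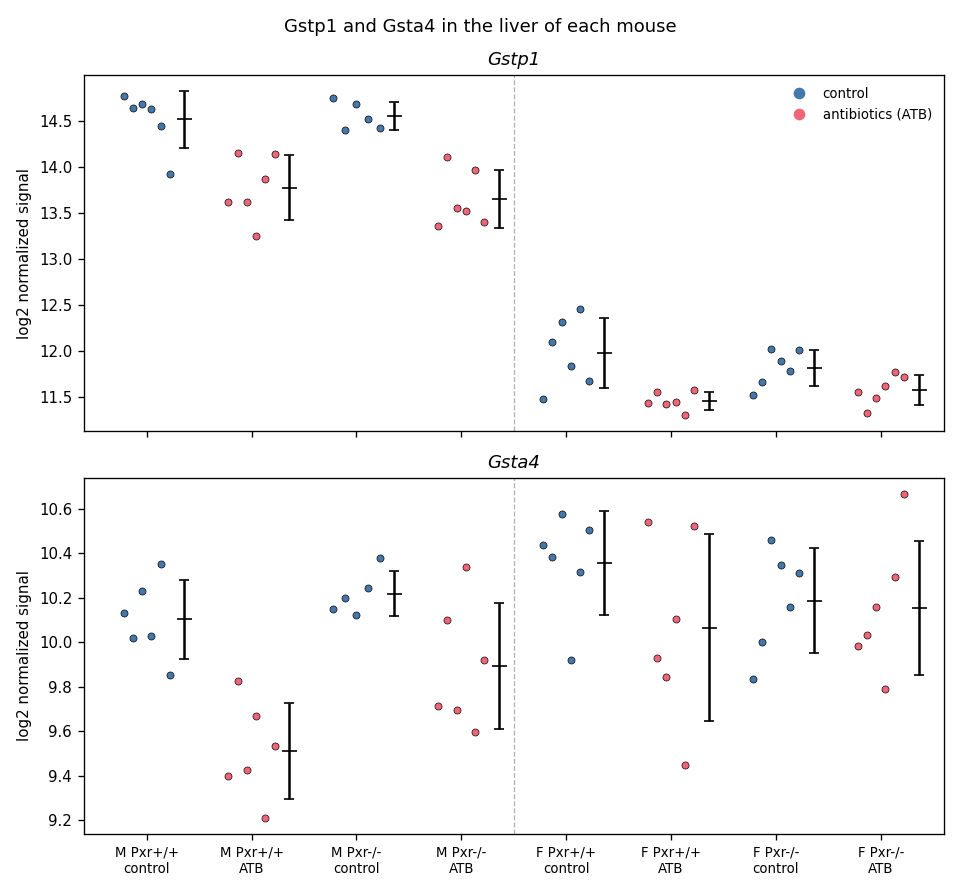
Log2 normalised signal of *Gstp1* and *Gsta4* in each mouse of the 8 groups, with the group mean and SD as horizontal and vertical bars. *Gstp1* of males sits between 13.25 and 14.77 and of females between 11.31 and 12.46. The means of the male ATB groups lie below those of the male control groups for both genes. The mice overlap for *Gstp1* in Pxr+/+ males and for *Gsta4* in Pxr-/- males.

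The count of members called stood beside few calls over all genes. In Pxr+/+ males 2 of the 9 members were lower after ATB, where 1.08% of the 21878 genes tested were called and 0.165% were called lower. In Pxr-/- males 1 of 9 was lower, where 0.11% of genes were called and 0.0594% were called lower. In Pxr+/+ females 0 of 9 members were called, with 1 at an unadjusted limma p under 0.05, where 0.0137% of genes were called. In Pxr-/- females 0 of 9 were called, again with 1 at an unadjusted p under 0.05, where 0.0274% of genes were called. The median over all probes moved by 0.10 in Pxr+/+ males, and relative to it the fall of *Gstp1* was -0.84 and that of *Gsta4* was -0.69.

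*Gstp2*, the copy next to *Gstp1*, was below control after ATB in every comparison without passing the test: -0.32 in Pxr+/+ males (adjusted p = 0.123), -0.43 in Pxr-/- males (adjusted p = 0.256), -0.44 in Pxr+/+ females (adjusted p = 0.177) and -0.22 in Pxr-/- females (adjusted p = 0.43, limma). In Pxr-/- males its ATB and control groups did not overlap.

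The other alpha, mu and theta members did not pass the test under antibiotics. *Gsta3*, the major alpha-class gene of mouse liver, differed by 0.07, -0.02, -0.06 and 0.12 in Pxr+/+ males, Pxr-/- males, Pxr+/+ females and Pxr-/- females. *Gstt1* differed by between -0.06 and 0.09 and *Gsta2* by between -0.28 and -0.08 in the same comparisons. *Gstm1* and *Gstm3* lay below control in all 4 comparisons, with the widest differences, -0.28 and -0.24, in Pxr-/- males, where the *Gstm1* groups did not overlap at the brightest probe (adjusted p = 0.74, limma). At the second *Gstm1* probe the difference in Pxr-/- males was -0.44 (14.98 against 15.43, unadjusted p = 0.00571, adjusted p = 0.519, limma), and there the groups overlapped, with the highest ATB liver at 15.21 and the lowest control liver at 15.19. *Gstm2* ran the other way, with differences of 0.29 in Pxr+/+ males (adjusted p = 0.269), 0.45 in Pxr-/- males (adjusted p = 0.488), 0.05 in Pxr+/+ females and 0.21 in Pxr-/- females (adjusted p = 0.598, limma). *Gstt3* differed by 0.16 and -0.10 in Pxr+/+ and Pxr-/- males and by -0.05 in Pxr+/+ females. In Pxr-/- females its difference was 0.42 (95% interval 0.06 to 0.79, unadjusted p = 0.0251, adjusted p = 0.342, limma), the widest of any member in that comparison. Groups without overlap were seen in Pxr+/+ males for *Gsta4* (4.04% of all genes) and in Pxr-/- males for *Gstm1* and *Gstp1* (0.983% of all genes).

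The fall of *Gstp1* in Pxr+/+ males passed the test under each of the other normalisations and models that used all 3 wash batches, and without any 1 of the 12 mice. The fall in Pxr-/- males lost its call without control replicate 2 (-0.85, adjusted p = 0.052) and in a fit of its own 2 groups alone (adjusted p = 0.0834), and that of *Gsta4* lost it without the dim-probe filter (adjusted p = 0.0651), without the wash batch (adjusted p = 0.0501) and without any 1 of 9 of the 12 mice (adjusted p up to 0.113). Within the 2 wash batches fitted alone, which hold 3 or fewer mice a group, no call was made at that size. *Gstp1* differed there by -0.90 and -0.98 in Pxr+/+ males and by -0.90 and -1.14 in Pxr-/- males. *Gsta4* differed there by -0.58 and -0.75 in Pxr+/+ males. Over all 3 wash batches the *Gstp1* difference in Pxr+/+ males was smaller in size, at -0.74. Wash batch 3, with 1 array a group, was not fitted, so these values do not cover it.

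Marker genes of other liver cells were compared in the same way, since a bulk signal cannot tell fewer cells of a type from less RNA per cell. None of the 53 marker genes of the 8 cell types tested was called under antibiotics by limma, with 6, 4, 9 and 5 at an unadjusted p under 0.05 in Pxr+/+ males, Pxr-/- males, Pxr+/+ females and Pxr-/- females. The 10 macrophage markers differed by a median of -0.22 in Pxr+/+ males and 0.48 in Pxr-/- males. Hepatocyte markers differed by a median of 0.11 and -0.01 in the same comparisons. The part of these cells in the antibiotic results was not tested.

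PXR loss moved 1 member past the threshold. *Gstm2*, a mu-class enzyme, was higher in Pxr-/- than in Pxr+/+ males after ATB. The mu-class members *Gstm1*, *Gstm2* and *Gstm3* had means above those of Pxr+/+ mice in all 4 comparisons of genotype, while alpha, pi and theta members lay on both sides of 0 or below. Other mu-class genes stood in the list of other transferases, so this holds for the named genes and not the whole class.

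*Gstm2* was read by a probe at chr3:107784622-107784681 and *Gstm3* by one at chr3:107766730-107766789. *Gstm2* in ATB males ran from 12.54 to 13.20 in Pxr+/+ livers (median 12.72) and from 13.13 to 13.87 in Pxr-/- livers (median 13.34). The ranges overlapped only at their ends. The means were 12.82 ± 0.26 and 13.42 ± 0.28 (SD, n = 6 each), a difference of 0.60 (SE 0.14, 95% interval 0.31 to 0.89, adjusted p = 0.0302, limma), or 1.52-fold higher. Relative to the median over all probes, which was -0.13 in this comparison, the difference was 0.74.

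In control males *Gstm2* ran from 12.21 to 12.84 in Pxr+/+ livers (median 12.52), against 12.95, 13.11, 12.88, 13.20 and 12.69 in the 5 Pxr-/- livers. All but 1 of the Pxr-/- livers lay above the highest Pxr+/+ liver. The difference was 0.44 (unadjusted p = 0.00552, adjusted p = 0.671, limma). In females it was 0.35 in control livers (adjusted p = 0.158) and 0.50 in ATB livers (unadjusted p = 0.00123, adjusted p = 0.312, limma).

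*Gstm1* differed by 0.32 in control males, 0.25 in ATB males, 0.22 in control females and 0.27 in ATB females, with adjusted p-values between 0.245 and 0.995 (limma). *Gstm3* differed by 0.39, 0.35, 0.27 and 0.38 in the same order, with adjusted p-values between 0.129 and 0.73. In control males the Pxr-/- and Pxr+/+ groups of both genes did not overlap, with *Gstm3* at 16.97 to 17.24 in Pxr-/- and 16.43 to 16.86 in Pxr+/+ livers. The second *Gstm1* probe, at chr3:107815595-107815654, gave 0.48, 0.24, 0.25 and 0.40 and also passed no test. The brightest *Gstm1* probe is placed by the files on chromosome 5, at 117082490 to 117082549, although the gene lies on chromosome 3, so the second probe is the one whose position fits the gene. The 12 differences of *Gstm1*, *Gstm2* and *Gstm3* were above 0 in each of 13 fits, among them the reported one and those within wash batches 1 and 2. The lowest was 0.05, within wash batch 1. As reported, the 12 differences ran from 0.22 to 0.60. These comparisons are not independent, since *Gstm1* and *Gstm3* varied together over the 47 arrays (r = 0.96, and 0.93 once group means were removed).

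**Figure D2:**
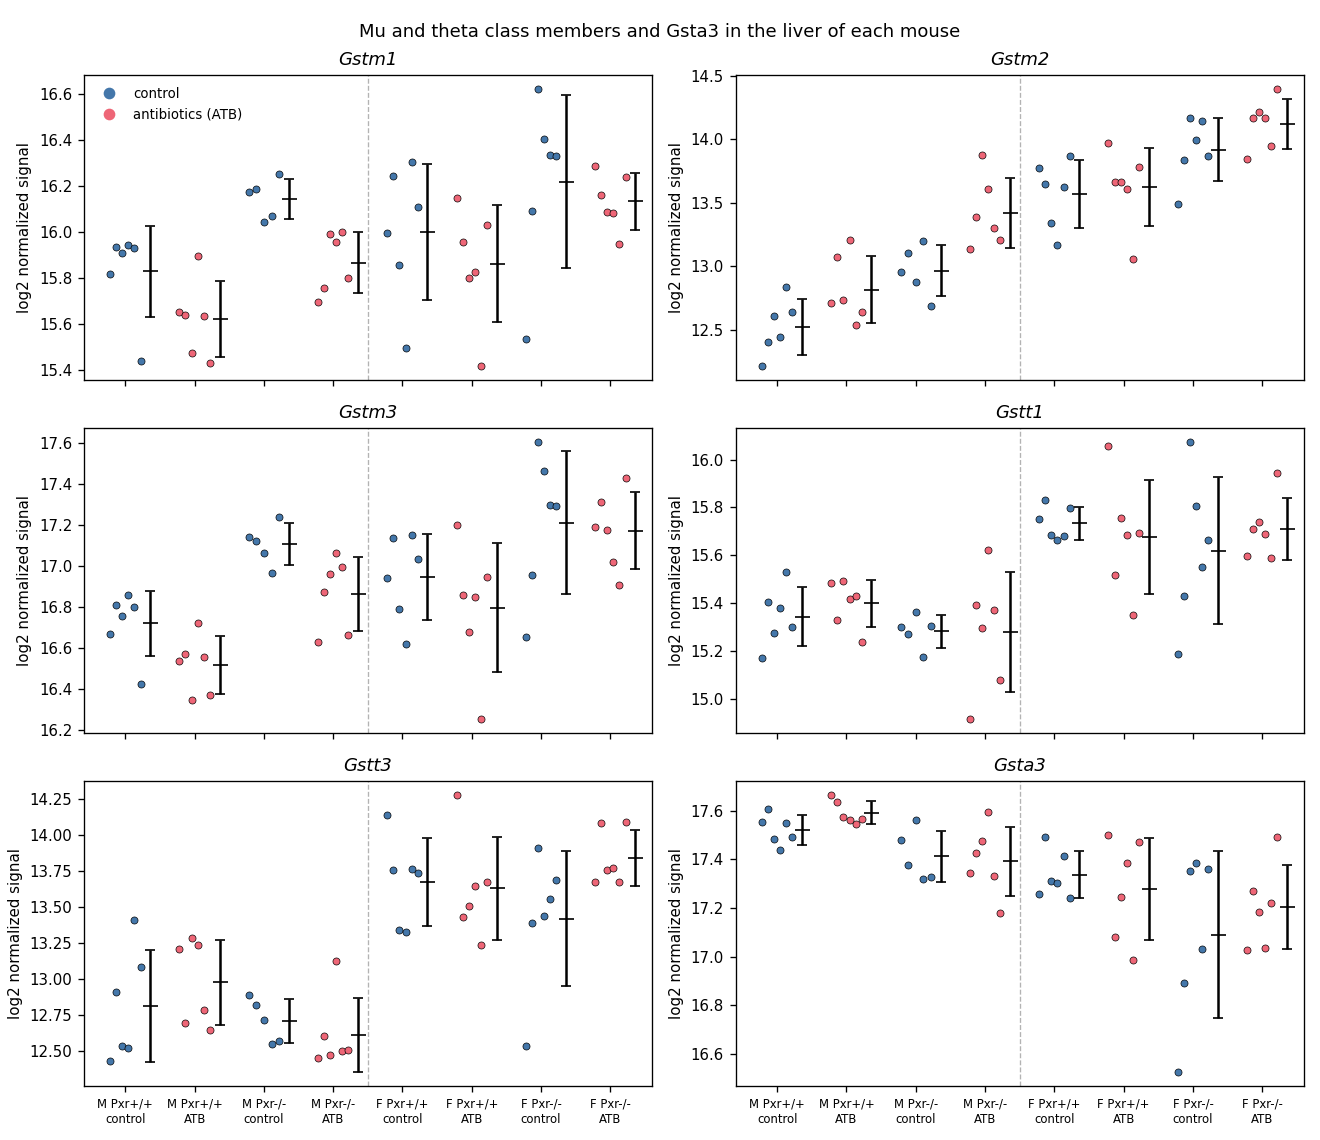
Log2 normalised signal of the mu-class genes *Gstm1*, *Gstm2* and *Gstm3*, the theta-class genes *Gstt1* and *Gstt3*, and *Gsta3* in each mouse of the 8 groups, with group mean and SD. The *Gstm2* means rise from 12.52 in control Pxr+/+ males to 14.12 in ATB Pxr-/- females, and those of *Gstt3* are lower in males (12.61 to 12.98) than in females (13.42 to 13.84).

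The 1 of 9 members called in ATB males stood beside 0.955% of all genes, of which 0.315% were called higher. In control males 0 of 9 members were called (0.187% of genes), in control females 0 (3.25%) and in ATB females 0 (0.215%), each with 3 members at an unadjusted limma p under 0.05. The groups of 2 members did not overlap in control males, where this held for 0.855% of genes. The call of *Gstm2* was lost in a fit of its own 2 groups alone (adjusted p = 0.079) and without any 1 of 7 of the 12 mice (adjusted p up to 0.0886, limma). The difference was 0.63 and 0.54 within the 2 wash batches fitted alone, with no call at that size.

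*Gstp1* differed between the genotypes by 0.04 in control males (95% interval -0.28 to 0.36), -0.12 in ATB males, -0.16 in control females and 0.12 in ATB females, and none passed the test. *Gsta3* differed by -0.11, -0.20, -0.25 and -0.07, *Gstt3* by -0.11, -0.37, -0.26 and 0.21 and *Gsta4* by 0.12, 0.38, -0.17 and 0.09 in the same order. In ATB males the *Gsta4* difference had a 95% interval of 0.08 to 0.69, which left out 0, with an unadjusted p of 0.0152 and an adjusted p of 0.147 (limma). Those of *Gstt3* and *Gsta3* in the same mice had intervals of -0.73 to 0.00037 and -0.41 to 0.01. In control females that of *Gsta3* ran from -0.46 to -0.04 (unadjusted p = 0.0225, adjusted p = 0.165, limma). None of these differences passed the test over all probes. No interaction of genotype with sex or treatment was called for any member, where 0.0229% and 0.0457% of genes were called for the effect of genotype between the sexes in control and ATB mice, 0.0183% and 0% for the effect of antibiotics between the genotypes in males and females, and 0.0411% and 0.00457% for the effect of antibiotics between the sexes in Pxr+/+ and Pxr-/- mice. 1 member in each of 2 of the 6 interactions had an unadjusted limma p under 0.05.

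Markers of macrophages and sinusoidal endothelium moved with genotype in control females, where 6 of 10 and 4 of 7 were called lower in Pxr-/- livers. The mean log2 signal of the macrophage markers averaged 11.12 (range 10.76 to 11.72) in Pxr+/+ and 10.17 (range 9.79 to 10.44) in Pxr-/- livers. In ATB males, where *Gstm2* was called, 0 of the 53 marker genes were called by limma, with 10 at an unadjusted p under 0.05. Of these, 7 were among the 9 hepatocyte markers, all of which lay below 0 in Pxr-/- livers, with a median difference of -0.17 and a mean log2 signal of 16.65 (range 16.59 to 16.76) in Pxr+/+ and 16.45 (range 16.37 to 16.51) in Pxr-/- livers. The macrophage markers averaged 9.67 (range 9.11 to 10.37) in Pxr+/+ and 9.92 (range 8.94 to 11.55) in Pxr-/- livers. The part of these cells in the *Gstm2* result was not tested.

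Sex was the axis with the most calls, both among the members and over all genes. In Pxr+/+ controls, Pxr+/+ mice after ATB, Pxr-/- controls and Pxr-/- mice after ATB, 4, 5, 5 and 4 of 9 members were called. The shares of all genes called were 32.2%, 12.5%, 16.2% and 25.9% in the same order. *Gstp1* was 4.2- to 6.66-fold higher in males, and *Gstm2* and *Gstt3* were higher in females, in all 4 comparisons of genotype and treatment. *Gstt1*, the other theta-class gene, was higher in females in 3 of 4, 1 of which was lost without single mice, *Gsta3* higher in males in 2 of 4 and *Gsta4* higher in females in 1 of 4. *Gstm3* passed no test between the sexes, nor did *Gsta2* (probe at chr9:78178856-78178915), whose differences ran from 0.29 to 0.59 with SDs of up to 0.78 within a group.

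*Gstp1* levels of all 23 male and all 24 female livers were fully apart, with males at 13.25 or above and females at 12.46 or below. Males exceeded females by 2.54 in Pxr+/+ controls (SE 0.15, adjusted p = 1.77e-17), by 2.32 after ATB (adjusted p = 3.8e-16), by 2.74 in Pxr-/- controls (adjusted p = 8.22e-18) and by 2.07 in Pxr-/- mice after ATB (adjusted p = 1.66e-14, limma). The differences within wash batches 1 and 2 ran from 1.71 to 2.83, all called. *Gstp2*, read by its own probe, was higher in males by 1.71, 1.83, 1.85 and 1.64 in the same order (adjusted p between 2.42e-17 and 1.09e-15, limma). Pi-class RNA was thus higher in males at both probes, and *Gstp3*, another copy, was lower in males, with differences of -0.88 to -0.77 in the 3 comparisons where it was called.

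*Gstm2* in Pxr+/+ controls ran from 12.21 to 12.84 in males (median 12.52) and from 13.16 to 13.87 in females (median 13.64). No male reached the lowest female. The difference was -1.05 (SE 0.14, 2.07-fold, adjusted p = 4.16e-07, limma). It was -0.81 after ATB (adjusted p = 6.63e-05), -0.95 in Pxr-/- controls (adjusted p = 9.72e-06) and -0.71 in Pxr-/- mice after ATB (adjusted p = 0.000329, limma), and the groups overlapped in both ATB comparisons. The direction was the same within wash batches 1 and 2, from -0.49 to -1.18.

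*Gstt3*, whose probe lies at chr10:75236966-75237025, ran in Pxr-/- mice after ATB from 12.45 to 13.13 in males (median 12.50) and from 13.68 to 14.09 in females (median 13.77). These groups did not overlap. The difference was -1.23 (SE 0.18, 2.35-fold, adjusted p = 1.69e-06, limma), and it was -0.86 in Pxr+/+ controls (adjusted p = 0.000385), -0.65 after ATB (adjusted p = 0.0122) and -0.71 in Pxr-/- controls (adjusted p = 0.00818). In those 3 comparisons the ranges overlapped. The call in Pxr+/+ mice after ATB was lost without female ATB replicate 1 (-0.52, adjusted p = 0.0623).

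*Gstt1*, read at chr10:75246560-75246619, averaged 15.34 ± 0.12 in male and 15.73 ± 0.07 in female Pxr+/+ controls (SD, n = 6 each), a difference of -0.39 (adjusted p = 0.00573, limma). It was -0.34 in Pxr-/- controls (adjusted p = 0.0386) and -0.43 in Pxr-/- mice after ATB (adjusted p = 0.00314), and -0.28 in Pxr+/+ mice after ATB, which did not pass (adjusted p = 0.0941). The call in Pxr-/- controls was lost without any 1 of 7 of the 11 mice, with a difference of -0.25 at the smallest (adjusted p up to 0.156, limma), and those of the other 2 comparisons passed without any 1 mouse. These differences depended on the scaling. With the scanner's processed signal the *Gstt1* differences in the 3 called comparisons were -0.09, -0.13 and -0.19 and none was called, and with quantile normalisation the first was -0.22 (adjusted p = 0.0572).

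*Gsta3*, read at chr1:21255189-21255248, averaged 17.59 ± 0.05 in males and 17.28 ± 0.21 in females of Pxr+/+ mice after ATB (SD, n = 6 each), a difference of 0.31 (adjusted p = 0.0412, limma), and 0.32 in Pxr-/- controls (adjusted p = 0.0379). The calls were lost without any 1 of 9 of 12 and 8 of 11 mice. The second *Gsta3* probe, at chr1:21255043-21255102, gave 0.22 and 0.26 with no call. The third *Gsta3* probe, at chr1:21246334-21246393, was dimmer, with group means between 8.03 and 9.12, and was higher in males by 1.09 in Pxr+/+ mice after ATB (adjusted p = 0.017, limma). *Gsta4* was lower in males in Pxr+/+ mice after ATB (-0.55, adjusted p = 0.0104, limma), a call that was lost without female ATB replicate 1 (-0.46, adjusted p = 0.0508) or replicate 6 (-0.45, adjusted p = 0.0596, limma). The second *Gstm1* probe was lower in males in Pxr-/- mice after ATB (-0.44, adjusted p = 0.022), where the brightest one differed by -0.27 (adjusted p = 0.118, limma).

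**Figure D3:**
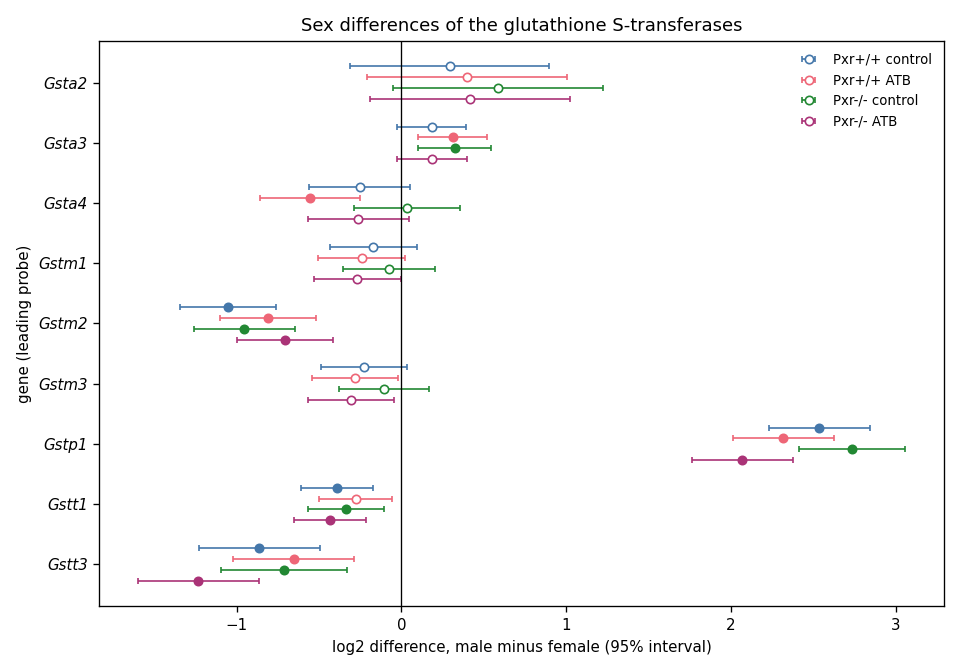
Log2 difference, male minus female, of each member at its brightest probe in the 4 comparisons, with 95% intervals from the limma fit and filled points where the gene was called. *Gstp1* sits between 2.07 and 2.74, far to the right of all others, and *Gstm2* and *Gstt3* lie below 0 in each comparison.

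Many genes of the liver differed by sex, and the members called stood beside them as follows. In Pxr+/+ controls 4 of 9 members were called where 32.2% of genes were, with 1 higher in males (2.18% of genes) and 3 lower (30%). After ATB 5 of 9 were called (12.5%), with 2 higher (3.44%) and 3 lower (9.05%). In Pxr-/- controls 5 of 9 were called (16.2%), with 2 higher (2.44%) and 3 lower (13.7%), and in Pxr-/- mice after ATB 4 of 9 (25.9%), with 1 higher (2.53%) and 3 lower (23.3%). Groups without overlap were seen for 3, 2, 2 and 2 members in that order, beside 17%, 6.58%, 7.33% and 10.2% of genes.

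The median over all probes was itself lower in males, at -0.20, -0.03, -0.12 and -0.18 in the 4 comparisons. Relative to it the *Gstp1* differences were 2.73, 2.35, 2.86 and 2.25, those of *Gstm2* were -0.85, -0.78, -0.83 and -0.53, those of *Gstt3* were -0.67, -0.62, -0.59 and -1.06, and those of *Gstt1* were -0.20, -0.24, -0.21 and -0.26. *Gstp1*, *Gstm2* and *Gstt3* were called in the same direction under quantile normalisation and with the processed signal in all 4.

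Markers of several cell types moved with sex as well, all of those called being lower in males. In the 4 comparisons 6, 6, 5 and 6 of the 7 T and NK cell markers were called, and 9, 5, 4 and 0 of the 10 macrophage markers. Of the 7 stellate cell and fibroblast markers 5, 0, 0 and 4 were called, of the 7 sinusoidal endothelial markers 4, 1, 1 and 0, and of the 9 hepatocyte markers 2, 0, 2 and 2. B cell, neutrophil and cholangiocyte markers gave 0 to 2 calls a comparison. The mean log2 signal of the T and NK cell markers averaged 6.60 (range 6.46 to 6.65) in male and 7.54 (range 7.33 to 7.70) in female Pxr+/+ controls. That of the hepatocyte markers averaged 16.52 (range 16.41 to 16.66) and 16.65 (range 16.59 to 16.70). The part of these cells in the sex differences of the transferases was not tested.

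**Figure D4:**
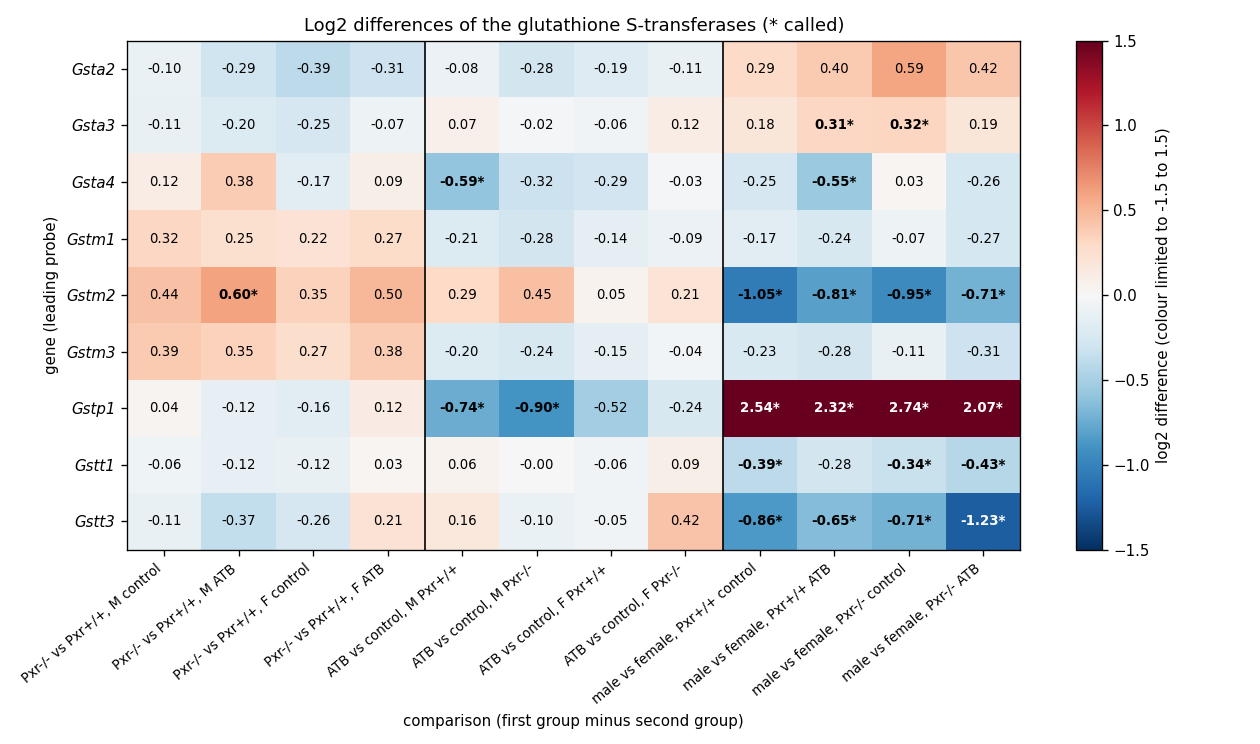
Heat map of the log2 difference of each member at its brightest probe (rows) in the 12 pairwise comparisons (columns), with the value printed in each cell, the colour limited to the range of its scale bar, and a star where the gene was called. The 4 sex comparisons of *Gstp1*, at 2.07 to 2.74, lie beyond the colour range, and under antibiotics stars stand at *Gstp1* in males and *Gsta4* in Pxr+/+ males.

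A list of other glutathione transferases and related genes held 24 genes, of which 20 were tested. None was called under antibiotics, with 6, 3, 3 and 2 of them at an unadjusted limma p under 0.05. The order is Pxr+/+ males, Pxr-/- males, Pxr+/+ females and Pxr-/- females, where 1.08%, 0.11%, 0.0137% and 0.0274% of all genes were called. Under PXR loss *Mgst3*, a microsomal transferase, was lower in ATB males (-0.78, adjusted p = 0.00357, limma), where 0.64% of genes were called lower. *Alox5ap*, which presents arachidonate to 5-lipoxygenase, was lower in control females (-0.57, adjusted p = 0.0492, limma), where 3.04% of genes were called lower. In the same comparison 6 of 10 macrophage markers were called lower, and the part of these cells was not tested. Between the sexes 11, 7, 8 and 9 of the 20 were lower in males in the 4 comparisons, beside 30%, 9.05%, 13.7% and 23.3% of all genes. *Gstp2* and *Mgst1* were higher in males in all 4, beside 2.18%, 3.44%, 2.44% and 2.53% of all genes. The omega-class gene *Gsto1* was lower in males in all 4, with differences of -0.65 to -0.42, and so was *Mgst3*, at -1.61 to -0.84.

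The genes that supply the cosubstrate were next. Of 14 tested genes of glutathione synthesis and breakdown, 0 were called under antibiotics or PXR loss, with 0 to 3 and 1 to 5 of them at an unadjusted limma p under 0.05. Over all genes, 0.0137% to 1.08% were called in the comparisons of antibiotics and 0.187% to 3.25% in those of PXR loss. Between the sexes *Ggct*, which breaks down gamma-glutamyl peptides, was lower in males in all 4 comparisons, with differences of -1.05 to -0.66, while no gene of the list was higher. Among 16 NRF2 targets 1 was called under antibiotics, *Ephx1*, the microsomal epoxide hydrolase, which fell by 0.70 in Pxr+/+ males (adjusted p = 0.0306, limma). In that comparison 1.08% of all genes were called and 0.165% were called lower. 0 of the 16 were called under PXR loss, with 0 to 4 at an unadjusted p under 0.05. *Nqo1*, the quinone reductase, was lower in males in all 4 comparisons, at -1.45 to -1.11. The list went both ways between the sexes. In Pxr+/+ controls, Pxr+/+ mice after ATB, Pxr-/- controls and Pxr-/- mice after ATB, 3, 1, 3 and 3 of the 16 were called lower in males. In the same order 2, 1, 1 and 1 were called higher. The shares of all genes were 30%, 9.05%, 13.7% and 23.3% lower, and 2.18%, 3.44%, 2.44% and 2.53% higher.

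Of 12 tested genes that export glutathione conjugates or turn them into mercapturates, 0 were called under antibiotics, with 1 to 3 at an unadjusted limma p under 0.05. Over all genes, 0.0137% to 1.08% were called in those comparisons. *Abcc3*, an export pump, was higher in Pxr-/- than Pxr+/+ control females by 0.50 (adjusted p = 0.0166, limma), where 0.21% of all genes were called higher. *Nat8*, the acetyltransferase of the last mercapturate step, was higher in males by 5.48 to 5.86, and *Abcg2* by 0.94 to 1.19, while *Abcc4* was lower in males, at -1.29 to -1.06. More of the 12 were called lower in males than higher. In Pxr+/+ controls, Pxr+/+ mice after ATB, Pxr-/- controls and Pxr-/- mice after ATB, 5, 4, 4 and 6 were lower, and 2 were higher each time. The shares of all genes were 30%, 9.05%, 13.7% and 23.3% lower, and 2.18%, 3.44%, 2.44% and 2.53% higher.

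Of 18 tested PXR and CAR targets, 4, 6, 3 and 4 were higher in Pxr-/- livers. The order is control males, ATB males, control females and ATB females, where 0.155%, 0.315%, 0.21% and 0.169% of all genes were called higher. 1 was lower in the males of each treatment and 0 in females, where 0.032%, 0.64%, 3.04% and 0.0457% of all genes were called lower in that order. The target lower in males was *Slco1a4*, a transporter of organic anions, at -2.92 in control and -2.21 in ATB males. In Pxr+/+ males 5 fell with antibiotics, where 0.165% of all genes were called lower. Among them were *Cyp3a11* (-2.04, adjusted p = 1.08e-10) and *Cyp2b10* (-3.11, adjusted p = 5.25e-08, limma). In Pxr-/- males the *Cyp3a11* difference was -0.20 (adjusted p = 0.887), and *Cyp2b10* fell by 1.87 (adjusted p = 0.0131, limma). After antibiotics 2 of the 18 were called lower in Pxr-/- males, 1 in Pxr+/+ females and 0 in Pxr-/- females. The shares of all genes called lower were 0.0594%, 0.0137% and 0.00457% in that order.

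For the 3 members called in most comparisons, the genes outside all lists with the closest pattern over the 47 arrays were taken by Pearson r, as a description across arrays that share sex, genotype and treatment. For *Gstp1* these were an unnamed transcript region of chromosome 1 (r = 0.996), *Nat8f5* (0.967) and *4930432K21Rik* (0.965). For *Gstm2* they were *Papss2* (0.902), *Akr1b7* (0.892) and *Serpinb1a* (0.871), and for *Gstt3* they were *Vnn3* (0.902), *Cyp2c39* (0.901) and *Cdkn1c* (0.898). Within the family *Gstt1* and *Gstt3*, which lie next to each other on chromosome 10, had an r of 0.89, and of 0.75 once group means were removed.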

How the data were processed

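Per the labels, the authors hybridised Cy3-labelled liver RNA to 1-colour Agilent arrays and read spot intensity with Agilent Feature Extraction 10.10.1.1. The authors also deposited processed log2 values, which were used as an alternative. Here log2 median spot intensity was used, without control spots and 3501 outlier-flagged spot values. Spots of a probe were averaged, the wash batch (3 batches over 6 slides) was removed with group means kept, probes were kept if 5 or more arrays of any group had them well above background, and arrays were normalised by CrossNorm (300 draws). limma 3.58.1 in R 4.3.3 was fitted on all 47 arrays with group and wash batch as terms, after the methods of the study; the filter and the stacking of arrays in CrossNorm were set here, because the sources used here do not give them. A gene was taken at its brightest probe. No member probe was saturated. The methods state 6 arrays for every group, and 5 were analysed for Pxr-/- control males.

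All members were named with all their probes. Genes of the other lists were named where called in at least 1 comparison, *Cyp2c55*, *Cyp3a11* and *Nr1i2* in any case. The members and lists were chosen with earlier results of these data known. On simulated data for ATB against control in Pxr+/+ males (32980 probes, 200 changed), the fit recovered 65% of log2 changes of 0.5 and 99% of changes of 1, with 8 false calls. The noise of the simulation was independent between probes and was added to means of normalised values. The simulation thus exercised the model and the call rule alone, without the normalisation or the prior removal of the wash batch. The number of arrays limits the precision. Promoters were matched by symbol to RefSeq (GRCm38.p6): 9 of 10 members had an entry, and *Gsta4* did not. Motifs were searched on both strands; TGANTCA and TGACNNNGC can overlap. Alternatives were quantile normalisation, processed signal, normexp, the deposited log2 values, the filter, wash batch, slide, replicate number, the arrays fitted, the probe of a gene, the fold threshold and each array left out. Tables were made with Python 3.11.15, matplotlib 3.10.9 and Biopython 1.88.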

Additional observations from a re-analysis of the deposited data

Results flagged for a closer look

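In 4 of the 96 combinations of a member probe and a group, 1 mouse lay far from the rest, by the gap to the nearest mouse over the range of the group. Chance gives about 1 in 20. *Gsta2* in control Pxr+/+ females was low in replicate 4, at 11.03 against 12.26 in the next mouse (ratio 0.671). In control Pxr+/+ males replicate 6 was low at both *Gstm1* probes, at 15.44 against 15.82 at the brightest one (ratio 0.747) and at 14.60 against 14.98 at the second (ratio 0.801). *Gstt3* was high in replicate 4 of the ATB Pxr-/- males, at 13.13 against 12.61 (ratio 0.769).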

How the results depend on the processing

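The direction of every call of a member was the same under all alternatives run. Of 220 recomputed member differences outside the wash batches and left-out arrays, 201 stayed on the same side of the threshold and 19 lost their call, and with 1 array left out 214 of 258 stayed. Within a wash batch, with 3 or fewer mice a group, 13 of 44 stayed; wash batch 3 holds 1 array a group and gave no test. The cause of the losses was not tested. Genes of the other lists were tested under the reported processing alone.

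Counts of members called moved as follows. For PXR loss in ATB males (1 as reported), 2 were called with the processed signal and 0 with only the groups compared and in wash batches 1 and 2. For antibiotics in Pxr+/+ males (2), 1 was called without the dim-probe filter, 1 without the wash batch and 0 in either wash batch, and in Pxr-/- males (1), 0 were called with only the groups compared and in either wash batch. Between the sexes in Pxr+/+ controls (4), 1 was called in wash batch 2, after ATB (5) 3 in wash batch 1 and 1 in wash batch 2, in Pxr-/- controls (5) 3 without the filter, 3 with only the groups compared and 1 in either wash batch, and in Pxr-/- mice after ATB (4) 2 in wash batch 1 and 1 in wash batch 2. With 1 array left out, the counts ran from 0 to 1 for PXR loss in ATB males, 1 to 2 for antibiotics in Pxr+/+ males, 0 to 1 for the same in Pxr-/- males, and 0 to 1 for Pxr+/+ females, and from 4 to 4, 3 to 6, 3 to 4 and 4 to 5 between the sexes; they stayed at 0 in the other 4 comparisons.

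With the replicate block no count moved by over 1.5 times, and 1 call was lost, *Gsta3* between the sexes in Pxr-/- controls (0.31, adjusted p = 0.0544, limma). Mice with the same replicate number did not deviate together (median r = -0.05 over 161 pairs, 34 of them over 0.1), so the numbers do not pair the mice.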
